A study of Brachypodium distachyon with 11 samples.

Results

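Regions that several clock-protein ChIP-seq libraries of Brachypodium share, and that lie deep inside the bodies of genes, are described here. All deposited peaks of the 10 libraries were merged where they overlapped by at least 1 bp, which gave 37936 regions on chromosomes 1 to 5. Of these, 8643 were recurrent, meaning that 5 to 9 of the 10 peak lists held them. The deep regions were thus chosen by the number of lists and by position: they were those recurrent regions whose midpoint fell inside a RefSeq protein-coding gene and more than 500 bp from every end of a protein-coding gene. There were 1390 of them, 16.1% of the recurrent regions (95% Wilson interval 15.3% to 16.9%). A further 4353 recurrent regions (50.4%) lay within 500 bp of a gene end and 2900 (33.6%) lay outside genes. Intervals here cover counting error only.

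The libraries came from 2-week-old seedlings of Brachypodium distachyon Bd21-3, a wild grass related to wheat and barley, grown at 20 °C on agar plates. Each plant line overexpressed 1 FLAG-tagged protein (ELF3_OX, phyC_OX or PRR37_OX), and sonicated chromatin was pulled down with an anti-FLAG gel. The ELF3 libraries numbered 7, from long days (LD), short days (SD) and constant light (LL) at zeitgeber time 0 (ZT0), and from LD and SD at both ZT4 and ZT20. ZT0 is when the lights came on in LD and SD, and a time by label only in LL. There were 2 PHYC libraries with the same labels (LD, ZT20) and 1 PRR37 library (LD, ZT4). Per the study's methods the ubiquitin promoter drove the transgenes in homozygous single-insertion lines, so the signal came from a broadly expressed protein in plants that also kept the native gene. If the day lengths were those of the flowering assays, ZT20 was dusk in LD and night in SD, so light state differed along with photoperiod. Apart from the PHYC pair every condition was 1 library, nothing says whether that pair came from separate plants, and no pull-down from untagged plants was analysed here. The lists held 12345 to 16458 peaks called at p under 0.1, of which 34 to 526 per library had a q-value under 0.01. Read depth was unknown.

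ELF3 is the scaffold of the evening complex, which represses clock and growth genes toward night. PHYC is a phytochrome, a light receptor that can act in the nucleus, and PRR37 belongs to the pseudo-response regulators, clock repressors known from cereals as the photoperiod gene PPD1. Such proteins are mostly studied at promoters, the sequence at and before the start of a gene. Gene bodies, made of exons and introns, can also carry regulatory sequence: the large introns of AGAMOUS in Arabidopsis and of VRN1 in wheat and barley are textbook cases. Strand, exons and introns were not used here, so a gene end is either the start or the stop of a gene.

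The share of regions deep inside genes was smaller the more lists held a region. Of regions in 1 list 24.0% were deep, against 17.6% of those in 5 lists, 13.2% of those in 9 lists and 9.86% of those in all 10. Deep sequence made up 27.1% of the bases up to the last deposited peak of each chromosome, so regions of every list number fell below it. The median fold enrichment, the ratio of signal to local background at a peak, went the other way. It was 1.99 for deep regions in 1 list, 2.18 at 5 lists, 2.52 at 9 lists and 2.87 at 10 lists. At each list number the median folds of regions deep inside genes, at gene ends and outside genes differed by less than 0.1. The number of lists chose the regions described here, so these values are a description.

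**Figure D1:**
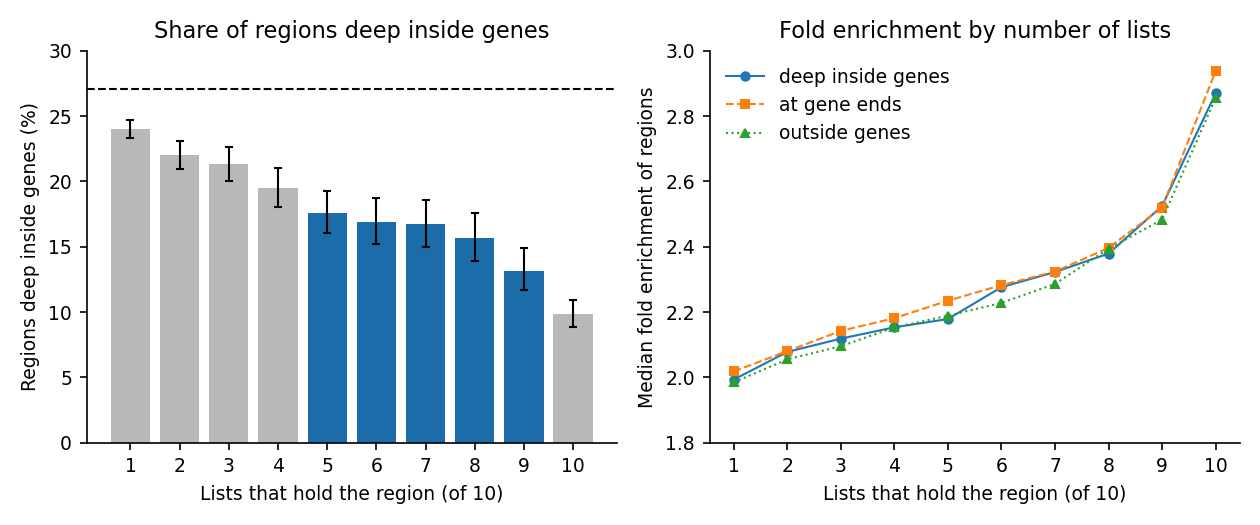
Left: percentage of merged regions that lay deep inside genes (bars, with 95% Wilson intervals) by the number of lists that held them, with the 5 to 9 lists of the recurrent regions in blue and the share of bases that is deep (27.1%) as a dashed line. Right: median fold enrichment of regions deep inside genes, at gene ends and outside genes on a linear axis that starts at 1.8; the deep share fell from 24.0% at 1 list to 9.86% at 10 lists while the median fold of deep regions went from 1.99 to 2.87.

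The deep regions were narrow and mostly weak, as were the other recurrent regions. Their median width was 380 bp (5th to 95th percentile 246 to 773 bp), against 402 bp for the other recurrent regions. Where each list had at most 1 peak in the region, the summits of the lists spread over a median of 97 bp (1284 deep regions), against 102 bp (6616 other regions). The median fold enrichment per region ranged from 1.59 to 3.84 with a median of 2.32, against a median of 2.33 for the other recurrent regions. A median fold of 3 or more was found for 39 deep regions (2.81%), against 4.12% of the other recurrent regions. Within a deep region the highest fold was typically 1.35 times the lowest, against 1.38 times in the others. At least 1 peak with a q-value under 0.01 was found in 8 deep regions, 0.576% of them, beside 0.798% of all recurrent regions. Among deep regions in all 10 lists, which are not part of the set, the count was 55 of 325 (16.9%).

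The strongest deep regions were found in most ELF3 and PHYC libraries. Regions in all 10 lists are outside the set, so each of them lacks at least 1 list. For 6 of the 10 strongest, with all 7 ELF3 lists and both of PHYC, the missing list is PRR37 by that rule, and PRR37 listed 44.8% of all deep regions. The region of highest median fold, 3.84, lay on chromosome 1 (57521912 to 57522261) near the middle of LOC106865847, 1393 bp from the nearer end. In the ELF3 libraries of ZT0 its fold was 3.12 in LD, 4.01 in LL and 3.84 in SD. At ZT4 it was 3.80 and 3.91, and at ZT20 it was 3.86 and 3.91, LD before SD. The PHYC libraries had 3.08 and 2.77, and PRR37 had no peak there. Both PHYC values were thus below all ELF3 values, and the ELF3 value in LD at ZT0 was closer to PHYC than to the other ELF3 libraries. The runner-up, on chromosome 2 (21636928 to 21637280) in LOC104582646, did not separate the proteins in this way. Its fold was 3.93 in LD, 3.68 in LL and 4.12 in SD at ZT0, 3.78 and 3.98 in LD and SD at ZT4, and 3.52 and 3.19 in LD and SD at ZT20 for ELF3. For PHYC it was 3.78 and 2.84, with the first inside the ELF3 range, and PRR37 again had no peak. Its summits lay within 26 bp of each other in all 9 lists.

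The region next in order was highest at ZT4 in LD. It lay on chromosome 4 (31387684 to 31388264), 778 bp from an end of LOC100831276, and reached 4.71 for ELF3 in LD at ZT4. The other ELF3 values were 3.80 in LD, 3.63 in LL and 2.96 in SD at ZT0, 3.80 in SD at ZT4, and 3.88 and 3.70 in LD and SD at ZT20. PHYC had 3.1 and 2.53. LOC100831276 held 2 more deep regions, both listed for PRR37, with median folds of 2.23 and 2.34, so the strong region was the only one of the gene without a PRR37 peak.

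The region with the highest single fold lacked ELF3 peaks at ZT4. On chromosome 3 (54161482 to 54161855), 746 bp from an end of LOC100821815, ELF3 reached 4.80 in LD, 3.30 in LL and 4.04 in SD at ZT0, then 2.29 in LD and 3.59 in SD at ZT20. Neither ELF3 list of ZT4 held it. PHYC had 3.45 and 1.95 under the same labels, and PRR37 had 3.56 at ZT4, the time at which ELF3 had no peak. It was the 1 region of the 10 strongest with a PRR37 peak, a count that the rule and the ranking by median over lists largely set, since PRR37 folds were the lowest. With 1 library per condition, the time pattern has no replicate check.

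The other regions among the 10 strongest varied in the order of the proteins, and some lacked several of the lists. In LOC100844882 (chromosome 2, 2900129 to 2900407) ELF3 ranged from 2.80 to 3.88 with a median over all lists of 3.44, and the PHYC values of 3.44 and 3.38 fell within that range. In LOC100823743 (chromosome 1, 2815723 to 2816518) PHYC was higher than every ELF3 library, at 3.78 and 3.58 against 2.77 to 3.39. In LOC100837898 (chromosome 3, 55011556 to 55011835) ELF3 ranged from 2.99 to 3.91 and PHYC had 3.38 and 2.78. LOC100845318 (chromosome 3, 45132264 to 45132555) was listed in all 7 ELF3 libraries, at 2.62 to 3.75, and in 1 of the PHYC pair, at 3.03. LOC104581569 (chromosome 1, 2585950 to 2586320) had only 5 lists, of which 4 were of ELF3 (2.13 to 3.77) and 1 of PHYC (3.67). LOC100841098 (chromosome 5, 4148689 to 4149121) was listed in 6 ELF3 libraries, all but LD at ZT0, at 3.33 to 4.08, and in no PHYC or PRR37 list. Its midpoint was 6241 bp from the nearer gene end, the deepest of the 10.

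**Figure D2:**
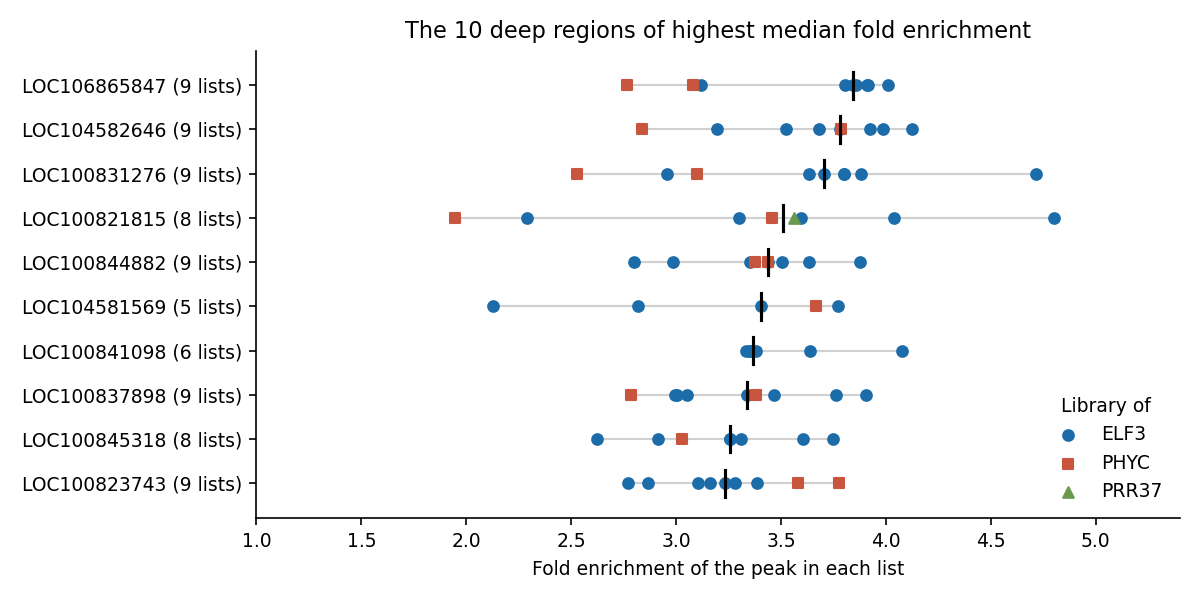
Fold enrichment (x axis, ratio) of the peak in each list that held it, for the 10 deep regions of highest median fold, named by gene, with ELF3 libraries as circles, PHYC as squares, PRR37 as a triangle and the median over lists as a black bar. Regions in all 10 lists are left out by the rule, PRR37 has a peak in LOC100821815 at 3.56, and in LOC106865847 both PHYC values (3.08 and 2.77) lay below every ELF3 value.

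A single deep region passed the q-value limit in several lists, and it was not one of high fold. It lay on chromosome 5 (26518350 to 26518579), 3502 bp from the nearer end of LOC100821881, and was only 230 bp wide. The fold was 2.35 in LD, 2.55 in LL and 2.64 in SD at ZT0 and 2.75 in LD at ZT20 for ELF3, and 3.03 and 3.23 for PHYC. Neither ELF3 list of ZT4, nor ELF3 in SD at ZT20, nor PRR37 held it. The q-value was under 0.01 in 5 of these 6 lists, all but ELF3 in LD at ZT0, and the highest -log10 p, 9.22, was the highest of any deep region. The other 7 deep regions with such a peak passed in 1 or 2 lists, and 4 of them were among the 10 strongest. Those outside the 10 were in LOC100827802 (3.70 for ELF3 in SD at ZT0), LOC100823561 (4.11 in 1 PHYC library) and LOC100833081 (4.15 for ELF3 in SD at ZT0), which were picked out after their values were seen.

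The deep regions were listed more often for ELF3 than for PHYC and PRR37, relative to recurrent regions in general. ELF3 libraries listed 64.2% to 84.0% of the 1390 deep regions. The PHYC pair listed 62.8% and 41.2%, and PRR37 listed 44.8%. List lengths differ, so the share of all 8643 recurrent regions that the same library listed was subtracted. For ELF3 this left -3.83, 2.14 and -1.40 percentage points in LD, LL and SD at ZT0, 8.97 and 2.31 in LD and SD at ZT4, and 3.14 and 2.65 in LD and SD at ZT20. For the PHYC pair it left -4.66 and -11.2 points and for PRR37 -11.3 points. All 3 non-ELF3 values lay below all 7 ELF3 values, with a narrow gap between ELF3 in LD at ZT0 and the PHYC library nearer to it. The ELF3 mean exceeded the mean of the others by 11 points. List membership chose the regions, so these values are a description with no test. Since each region had 5 to 9 lists, a lower share in some libraries goes with a higher one in others, and a region can enter the set through ELF3 lists alone but not through the other 3 alone.

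**Figure D3:**
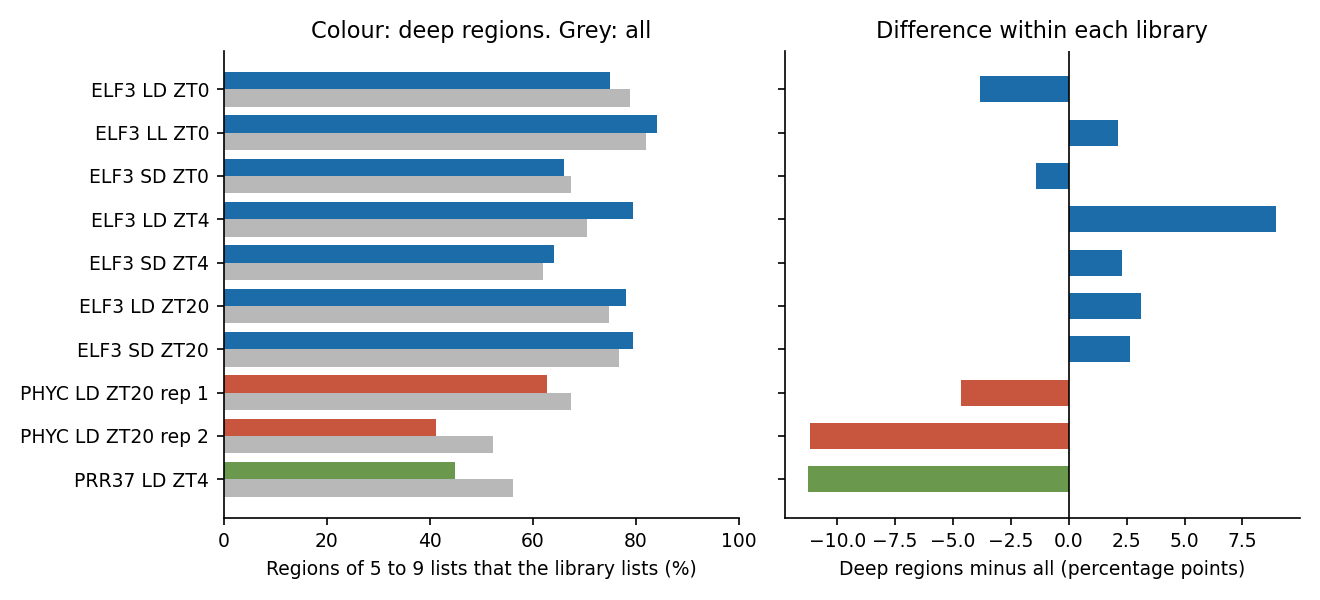
Left: percentage of deep regions (coloured bars, 1390 regions) and of all recurrent regions (grey bars, 8643 regions) that each library listed. Right: the difference within each library in percentage points; ELF3 libraries (blue) ranged from -3.83 to 8.97, the PHYC pair (red) had -4.66 and -11.2 and PRR37 (green) had -11.3.

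A comparison without the limit of 5 to 9 lists, added after seeing the data, gave the same order. Whole lists include the peaks of the deep regions, so it is a description and no separate support. Over whole deposited lists, 16.1% to 19.1% of ELF3 peaks had their midpoint deep inside a gene, against 15.1% and 12.8% of PHYC peaks and 12.7% of PRR37 peaks (difference of means 4.19 points). The 3 non-ELF3 lists were also the 3 shortest, with 12345 to 13351 peaks against 13666 to 16458. With every list reduced to its 12345 strongest peaks, a comparison added after seeing these lengths, the difference in listing of deep regions was 11.5 points. The share of whole lists was not compared at equal lengths. At matched conditions the difference was 3.14 points for ELF3 and -4.66 and -11.2 for the PHYC pair in LD at ZT20, and 8.97 for ELF3 and -11.3 for PRR37 in LD at ZT4. Each protein was expressed in its own transgenic plants, so protein and line cannot be told apart for any of the 3, nor protein and library for PRR37.

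Among recurrent regions, the share that was deep varied with how many PHYC and PRR37 lists held the region. It was 24.0% where none of the 3 did, 20.3% with 1, 14.8% with 2 and 9.87% with all 3. At each number of ELF3 lists from 3 to 7 the share was lowest in the group with the most PHYC and PRR37 lists. That group also had the most lists in all, and over all merged regions the deep share was smaller with more lists. These shares describe the same lists as the listing difference above. With none of the other lists it was 24.4%, 23.5% and 23.3% at 5, 6 and 7 ELF3 lists, and with 1 of them it went from 17.3% at 4 ELF3 lists to 23.1% at 7. The median fold of the deep regions hardly moved, from 2.33 with none of the other lists to 2.27 with all 3.

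**Figure D4:**
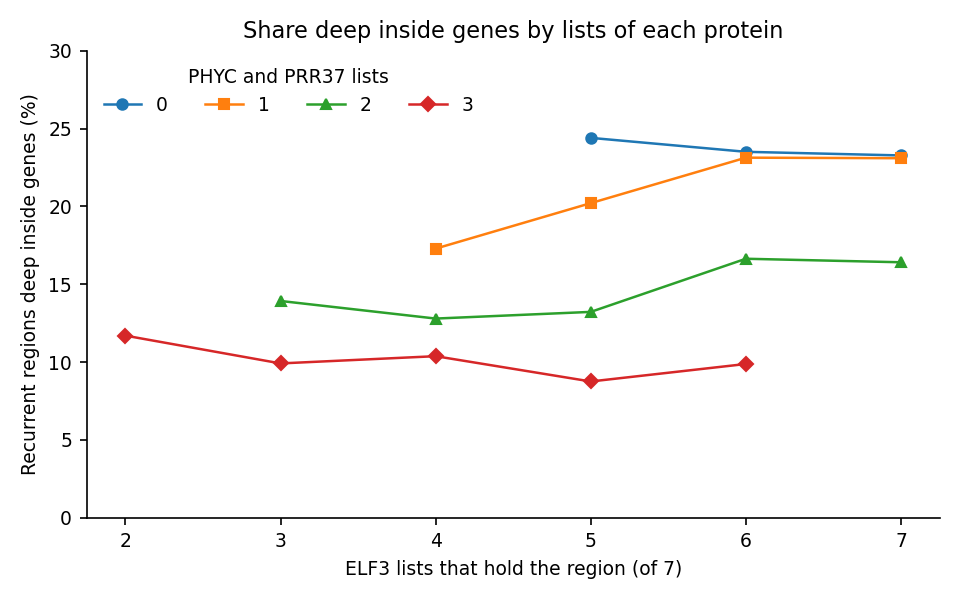
Percentage of recurrent regions that lay deep inside genes, by the number of ELF3 lists (x axis) and of PHYC and PRR37 lists (lines) that held them. With none of the other lists the share was 23.3% to 24.4%, and with all 3 it was 8.76% to 11.7%.

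Counts of listing patterns restate this difference region by region and add no further support. All 7 ELF3 lists and none of the others held 27 deep regions (1.94%, against 1.34% of all recurrent regions), and at least 5 ELF3 lists and none of the others held 217 (15.6%, against 10.5%). The reverse, all 3 PHYC and PRR37 lists with at most 4 ELF3 lists, was found for 84 (6.04%, against 9.21%). Strongest among those with all 7 ELF3 lists was a region in LOC100836816 on chromosome 1 (15625969 to 15626285). Its fold was 2.86, 3.06 and 3.51 in LD, LL and SD at ZT0, 3.02 and 2.70 in LD and SD at ZT4, and 2.80 and 2.99 in LD and SD at ZT20. LOC100827574 (chromosome 2, 1080854 to 1081166) varied more, from 2.11 in LD to 3.92 in SD at ZT0. LOC100839233 (chromosome 3, 43727043 to 43727347) had 2.30 to 3.08. Of the reverse pattern, a region in LOC100837027 (chromosome 1, 26110660 to 26110990) had 2.40 and 3.06 for PHYC and 2.74 for PRR37, with ELF3 at 2.66 in LD and 3.39 in LL at ZT0, and 3.28 and 3.15 in LD and SD at ZT20. In LOC100843234 (chromosome 1, 1188354 to 1188697) the 2 ELF3 lists were both of LD, with 3.34 at ZT0 and 2.46 at ZT20, beside 2.28 and 3.03 for PHYC and 2.85 for PRR37.

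The PHYC pair listed few deep regions in common. Both libraries held 392 (28.2%, against 37.9% of all recurrent regions), 1 of the pair held 661 (47.6%, against 44.0%), and neither held 337 (24.2%, against 18.1%). Replicate 1 alone accounted for 481 of the 661 (34.6%, against 29.6%) and replicate 2 alone for 180 (12.9%, against 14.4%). Of the deep regions in replicate 1, 44.9% were in replicate 2, and of those in replicate 2, 68.5% were in replicate 1. In LD at ZT20, ELF3 listed 263 deep regions that neither PHYC library held (18.9%, against 14.3%), and both PHYC libraries listed 108 that ELF3 did not (7.77%, against 11.0%). Of these 108 the strongest, in LOC100846422 (chromosome 3, 43290432 to 43290847), was in 9 lists at 2.04 to 2.97, so ELF3 in LD at ZT20 was the only library without it. The same held for LOC100824427 (chromosome 4, 43399679 to 43400083), at 2.02 to 3.22. A missing peak means only that none was called at p under 0.1.

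In LD at ZT4 the gap between ELF3 and PRR37 was wider. ELF3 listed 635 deep regions that PRR37 did not (45.7%, against 34.0% of all recurrent regions), and PRR37 listed 153 that ELF3 did not (11.0%, against 19.5%). The common ones were 470, 42.5% of the ELF3 deep regions and 75.4% of those of PRR37. PRR37 peaks in deep regions had the lowest median fold of the 10 libraries, 2.11, and 4 of them (0.642%) reached a fold of 3, against 5.16% to 12.3% of the ELF3 peaks in deep regions. The PRR37 library also had the lowest median fold in the other recurrent regions, 2.2.

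Photoperiod did not sort the deep regions consistently over the day in the ELF3 libraries. At ZT0 LD listed 75.0% and SD 66% of them, at ZT4 79.5% and 64.2%, and at ZT20 78.0% and 79.4%. At ZT0 LD and not SD listed 362 (26%, against 25.8% of all recurrent regions) and SD and not LD 238 (17.1%, against 14.5%). At ZT4 these were 376 (27.1%, against 25.8%) and 163 (11.7%, against 17.1%). At ZT20 they were 206 (14.8%, against 16.3%) and 226 (16.3%, against 18.2%), so the gap in favour of LD at ZT0 and ZT4 was gone. After subtraction of the same difference over all recurrent regions, LD minus SD was -2.43, 6.66 and 0.49 points at ZT0, ZT4 and ZT20. The mean was 1.57 ± 4.64 points (SD over 3 times), given with no test because list membership chose the regions. The sign of the mean rested on ZT4: without either ZT4 library it was -0.968 points. In regions listed in both, the median log2 ratio of LD to SD fold was -0.039 at ZT0 (680 regions), 0.034 at ZT4 (729) and 0.069 at ZT20 (878), next to -0.031, 0.035 and 0.053 over all recurrent regions. The mean was 0.021 ± 0.055 (SD, n = 3 times, exact sign-flip p = 0.75, where 0.25 is the smallest possible), and -0.0024 without either ZT20 library. Folds from separate lists are each scaled to their own background, so such ratios compare lists as much as sites.

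Few deep regions were listed by photoperiod alone. All 3 LD lists and no SD list of ELF3 held 30 (2.16%, against 1.84% of all recurrent regions), and all 3 SD lists and no LD list held 13 (0.935%, against 0.879%), shares close to those of recurrent regions in general. The strongest of the 30 were in LOC100830648 (chromosome 3, 27621626 to 27621847), at 2.85, 2.52 and 3.04 in LD at ZT0, ZT4 and ZT20, in LOC100839799 (chromosome 1, 36267378 to 36267610), at 2.65, 2.51 and 2.69, and in LOC100829022 (chromosome 4, 15676365 to 15676815), at 2.77, 2.83 and 2.41. All 3 were also listed in LL at ZT0. Of the 13, the strongest was in LOC100837719 (chromosome 1, 49096782 to 49097043), at 3.29, 2.30 and 2.53 in SD at ZT0, ZT4 and ZT20. It had 2.44 in LL and a higher value, 3.58, in a PHYC library from LD. LOC100826629 (chromosome 1, 14132125 to 14132403) had 3.29, 2.06 and 2.66 in SD and was in both PHYC lists from LD, at 2.37 and 2.18. A region with the 3 SD lists and no LD list of ELF3 can reach 5 lists only with a PHYC or PRR37 list, so a peak in LD with another protein is set by the rule.

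Constant light gave the longest list and the largest share of deep regions, 84.0%, which was 2.14 points above its share of all recurrent regions. In LL at ZT0 and in neither LD nor SD at that time, ELF3 listed 93 deep regions (6.69%, against 5.53%). In LD and SD and not in LL it listed 99 (7.12%, against 8.90%). The strongest of the LL group, in LOC100827763 on chromosome 2 (15877273 to 15877581), had 5 lists and a median fold of 2.84. In LOC100844819 (chromosome 1, 73868332 to 73868680) and in LOC100845411 (chromosome 3, 30602900 to 30603449) the regions were missing from LD and SD at ZT0 and present in both at ZT4 and at ZT20. Their median folds were 2.82 and 2.77.

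Few deep regions were listed by ELF3 at 1 time of day and not at another in both LD and SD. Both lists of ZT0 and neither of ZT4 held 50 (3.6%, against 6.18% of all recurrent regions), and both of ZT4 and neither of ZT0 held 56 (4.03%, against 3.02%). For ZT20 and not ZT0 the count was 71 (5.11%, against 3.74%), and for ZT0 and not ZT20 it was 33 (2.37%, against 3.34%). For ZT20 and not ZT4 it was 63 (4.53%, against 5.70%), and for ZT4 and not ZT20 it was 40 (2.88%, against 2.53%). The shares for ZT0 lay below those of all recurrent regions against both other times, and the difference was not tested. The largest difference of any ELF3 library was in LD at ZT4, and these counts rest on single libraries. LOC100845208 (chromosome 3, 11516434 to 11516725) was held by both lists of ZT0 and both of ZT4 and by neither of ZT20, at a median fold of 2.55, and so was LOC100829161 (chromosome 1, 10262962 to 10263251), at 2.65.

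In fold enrichment the deep regions were close to other recurrent regions of the same library. The median log2 fold of deep minus other regions ranged from -0.068 to 0.0060 over the 10 libraries, with a mean of -0.018 ± 0.027 (SD, n = 10 libraries, exact two-sided sign-flip permutation p = 0.0664, and 0.133 after Benjamini-Hochberg adjustment over the 6 comparisons). The lowest values were those of PHYC replicate 2 and PRR37 (-0.059). Against recurrent regions at gene ends alone the mean was -0.028 ± 0.024 (n = 10, exact p = 0.00195, the smallest possible) and negative in 10 of 10 libraries. Against recurrent regions outside genes it was -0.0015 (exact p = 0.873). Neither comparison held the number of lists equal, and fold and deep share both varied with it. All libraries drew on the same set of regions, so the p-values for fold and width do not measure spread over regions. Within each number of lists the mean against all other recurrent regions was -0.0078 ± 0.027. Against gene ends alone this was not tested. Median folds of deep and gene-end regions were 2.18 and 2.23 at 5 lists, and 2.28 each at 6. They were 2.32 each at 7 lists, 2.38 and 2.40 at 8, and 2.52 each at 9. Peak width differed by -3.8 ± 6.46 bp (n = 10, exact p = 0.102, adjusted 0.152), and without ELF3 in LD at ZT4 the difference was -5.11 bp (exact p = 0.0117). The share of peaks with a q-value under 0.01 was 0% to 0.545% in deep regions and differed from that in the others by a mean of -0.0740 ± 0.103 points (n = 10, exact p = 0.03125, negative in 8 libraries), which did not pass after that adjustment (exact test, adjusted p = 0.0938). The passing peaks lay in 8 deep regions, and 1 of these, in LOC100821881, passed in 5 lists. The libraries thus shared the same few regions, and the p-value does not measure spread over regions. The difference in share was -0.189 points against regions outside genes (exact p = 0.00195, the smallest possible) and 0.0012 points against gene ends (exact p = 0.992). The unadjusted call against all others did not hold without any one of ELF3 in LD, LL or SD at ZT0, in SD at ZT4 or in LD or SD at ZT20, or PHYC replicate 1 (-0.0763 to -0.0486, exact p = 0.0508 to 0.0625). In ELF3 in SD at ZT4, ELF3 in SD at ZT20 and PRR37, 0 peaks in deep regions passed. A count of 3 peaks there would be a share of 0.336%, 0.272% and 0.482%. As upper limits these shares take the peaks as independent, so they are rough.

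Deep regions grew sparser with distance from the gene end. Over 500 to 1000 bp from an end there were 30.1 per Mb of deep sequence (629 regions), from 1000 to 2000 bp 16.6 per Mb (444), from 2000 to 4000 bp 13.3 (243), from 4000 to 8000 bp 10.9 (68) and farther in 4.83 (6 regions only). Recurrent regions within 500 bp of an end stood at 93.8 per Mb and those outside genes at 19.2, so the average over deep sequence, 18.9 per Mb, was close to that outside genes. Regions in 1 list also thinned out, from 61.3 to 26.1 per Mb between 500 to 1000 bp and 4000 to 8000 bp, and those in all 10 lists from 7.95 to 1.28. The fold did not change with depth in the gene, with medians between 2.2 and 2.36 at all distances. The distance entered the rule at 500 bp. The deep regions just inside that limit, both at 501 bp, were in LOC100837161 (median fold 2.42) and LOC100838155 (2.39), and the recurrent regions just outside it, both at 500 bp, were in LOC100834865 (2.64) and LOC100845322 (2.74).

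**Figure D5:**
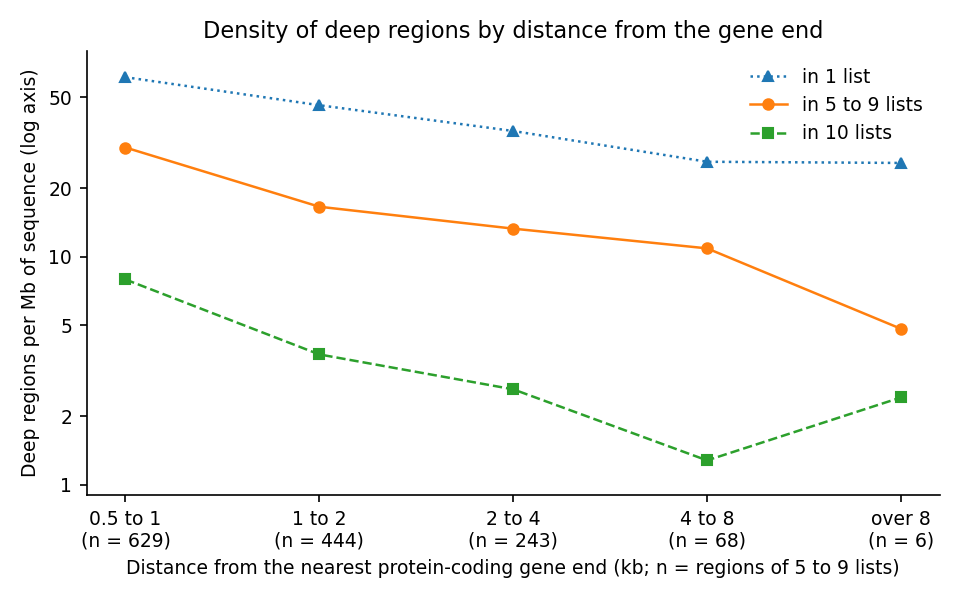
Deep regions per Mb of deep sequence (log axis) by distance of the midpoint from the nearest protein-coding gene end, for regions in 1 list, in 5 to 9 lists and in all 10 lists; n counts the regions in 5 to 9 lists. Recurrent deep regions went from 30.1 per Mb at 500 to 1000 bp to 10.9 per Mb at 4000 to 8000 bp, and the last point rests on 6 regions.

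Along the chromosomes the deep regions were somewhat denser toward the ends. In the outer sixths of the chromosomes there were 21.2 per Mb of deep sequence, in the sixths next to them 18.1, and in the middle 16.4. Regions in 1 list had the same gradient (52.0, 45.0 and 36.9 per Mb). The deep regions of the 3 zones had median folds of 2.33, 2.29 and 2.31, and ELF3 libraries listed 76.2%, 74.0% and 74.8% of them. Neighbouring deep regions were a median of 108316 bp apart.

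The regions were spread over 1313 genes, of which 1242 held 1, 65 held 2 and 6 held 3. These genes were long, with a median of 4981 bp against 3389 bp for the 23458 protein-coding genes over 1000 bp, the shortest that could hold a deep region. The share of genes with a deep region went from 1.43% of those of 1000 to 2000 bp to 4.43%, 7.74%, 12.8% and 18.8% in the length classes up to 4000, 8000 and 16000 bp and beyond. Length sets how much deep sequence a gene has, so the share follows from it in part. A recurrent region at one of the gene's own ends was found for 35.0% of genes with a deep region and for 25.2% of the others. The order was the same within each length class, from 27.6% against 20.1% in the shortest to 25.9% against 24.8% in the longest.

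LOC100842068 on chromosome 1 had the most elaborate pattern. It held 3 deep regions with median folds of 2.04 (4326091 to 4326473), 2.44 (4327038 to 4327390) and 2.76 (4330476 to 4330875), listed in 5, 7 and 6 libraries. Between them lay a region listed in all 10 libraries (4328045 to 4328752), outside the set for that reason, which had the highest median fold of the 325 deep regions in all 10 lists, 5.85. That central peak was at 5.98, 5.46 and 6.30 for ELF3 in LD, LL and SD at ZT0, 6.08 and 5.72 at ZT4, and 6.01 and 5.48 at ZT20. It was at 6.65 and 4.96 for PHYC and 5.28 for PRR37, with a q-value under 0.01 in every list. The flanking regions lacked different lists: the last of the 3 was listed only for ELF3, in 6 libraries, while the middle one was also in both PHYC lists and that of PRR37. In LOC100837145 (chromosome 1) 3 regions between 10791500 and 10793782 were in 5 to 7 lists at medians of 2.33 to 2.57, none for PRR37. LOC100827370 on chromosome 2 had 3 between 49914562 and 49920366 at 2.26 to 2.36, LOC100841242 on chromosome 3 had 3 between 40896711 and 40902373 at 2.02 to 2.11, and LOC100823629 on chromosome 4 had 3 between 45554469 and 45558829 at 1.81 to 2.56.

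RefSeq names 39 of the protein-coding genes other than by a locus number, and 5 of them held a deep region, picked out after their values were seen. SWN genes encode NAC transcription factors of secondary cell wall formation, and 3 of the 7 held one. Of all protein-coding genes over 1000 bp 5.60% did. The SWN count is too small to set against that share, which also goes with gene length. In SWN7 (chromosome 1, 48870401 to 48870755) ELF3 had 2.84, 2.87 and 2.68 in LD, LL and SD at ZT0, 3.05 and 2.44 in LD and SD at ZT4, and 3.32 and 2.56 in LD and SD at ZT20, with 2.15 in 1 PHYC library and 2.36 for PRR37. In SWN1 (chromosome 1, 73463325 to 73463820) the same libraries of ELF3 had 2.59, 2.51 and 2.87, then 2.55 and 2.46, then 3.31 and 2.70, with 1.97 in the other PHYC library and 2.45 for PRR37. In both genes ELF3 was highest in LD at ZT20, and all 7 ELF3 values lay above those of PHYC and PRR37, if by as little as 2.46 against 2.45. SWN2 (chromosome 5, 20332595 to 20332956) was listed in 4 ELF3 libraries at 2.02 to 2.78 and in 1 of PHYC at 2.18. CAD5 carries the name of the cinnamyl alcohol dehydrogenases, enzymes that make lignin precursors. Its region (chromosome 3, 4692173 to 4692470) was listed in 3 ELF3 libraries at 2.29 to 2.66, in both of PHYC at 2.18 and 2.22, and for PRR37 at 2.58.

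Of 8 MADS-box genes that the table names by symbol or synonym, MADS2 was the only one with a deep region. MADS-box proteins set flowering time and floral organ identity in plants. The region (chromosome 4, 44690031 to 44690353) was 1393 bp from the nearer end and was listed for ELF3 alone, at 1.95, 2.49 and 2.55 in LD, LL and SD at ZT0, 2.83 in LD at ZT4, and 2.72 and 2.29 in LD and SD at ZT20. None of these peaks had a q-value under 0.01. From the other clock, light and flowering genes 1 could be matched by name, and it held no deep region. Of the 9 named MAP kinase genes (MPK and MKK), the 4 CBF cold-response factors over 1000 bp and the 5 nucleoside diphosphate kinases, 0 held a deep region, counts too small to set against the 5.60% of all genes.

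A few deep regions overlapped a second gene of another kind, and those named here were picked out after their values were seen. There were 27 (1.94%) at long non-coding RNA genes, which make up 1.56% of deep sequence, and 3 at pseudogenes. One (chromosome 1, 3140023 to 3140280), inside LOC100824126, overlapped the microRNA gene MIR5198 and was listed in all 7 ELF3 libraries and no other. Its fold was the most even of the regions named here, at 2.61 to 2.76. Another (chromosome 2, 10820806 to 10821264), inside LOC100825595, overlapped a small nucleolar RNA gene and was listed in all 3 PHYC and PRR37 libraries and in 4 of ELF3, at 1.59 to 2.45. The widest deep region, also picked out afterwards, was 1788 bp in LOC100840200 on chromosome 2 (1994561 to 1996348) and was made of 20 peaks over 9 lists at a median fold of 3.11.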

How the data were processed

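The series holds 11 samples, of which 10 have a peak list and 1 is an input without one. The paper's methods state that the authors aligned reads to a Brachypodium genome, removed duplicates, called peaks with MACS2 and filtered them by q-value. The submitters' processing notes name Trimmomatic, Bowtie2, Picard, deepTools and MACS2 and the Arabidopsis build TAIR10, but chromosomes in the deposited lists are those of Brachypodium. The deposited lists give, for each peak, the authors' fold enrichment (a ratio to local background), -log10 p-value, -log10 q-value, the summit and a score equal to the whole part of 10 times -log10 p. The lowest -log10 p was 1.00, so the lists include peaks down to p of 0.1, before any q filter. Whether an input was used in calling is not given in the sources used here. Depth was unknown, so precision per peak cannot be given.

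Peaks overlapping by 1 bp or more were merged, and the strongest peak per list and region was used. Gene positions came from RefSeq's table of the Bd21 assembly (version 3.0 by name), with 25449 protein-coding genes on chromosomes 1 to 5; printed coordinates are those of the deposited peaks, counted from 1. Chromosome ends were taken as the last base of any peak. The library was the unit of every test: exact two-sided sign-flip permutation over libraries or times, and exact permutation over all splits into 7 and 3. The libraries drew on the same regions, so none of these p-values measures spread over regions. P-values of the 6 comparisons were adjusted by Benjamini-Hochberg. Those on listing, which the rule used, entered the adjustment but are not printed, so the adjusted values depend in part on them. P-values of alternatives are unadjusted. Genes named were the 10 regions of highest median fold, those with a q-value under 0.01 in at least 5 lists, the strongest of each listing pattern, the genes with most regions, members of a clock, light and flowering list, and the regions nearest to the 500 bp limit; others are marked as picked out later. Members and lists were chosen with earlier results of these data known. Classes by product name, strand, exons and sequence were not used here. Functions were tested on simulated lists. Python 3.11.15 was used with pandas 2.3.3, numpy 2.4.6 and matplotlib 3.10.9.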

Additional observations from a re-analysis of the deposited data

Results flagged for a closer look

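In 15 groups examined for a sample far from the others, 2 stood out, and chance alone flags about 1 in 20 such groups. The share of peaks in deep regions with a q-value under 0.01 was 0.545% for ELF3 in SD at ZT0 (5 peaks), above the other 6 ELF3 libraries (0% to 0.171%). The same library also had the highest share in the other recurrent regions, 0.652%. At LOC106865847 ELF3 in LD at ZT0 had a fold of 3.12, below the other 6 ELF3 libraries (3.80 to 4.01). The listing of deep regions differed between ELF3 and the other proteins by 11 points, with all 7 ELF3 libraries above all 3 others, a description since list membership chose the regions. Outside the merged regions, the lists held 7 deposited peaks on sequences other than chromosomes 1 to 5, of which 0 had a q-value under 0.01.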

How the results depend on the processing

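The listing difference between ELF3 and the other proteins kept its sign in every alternative run, at 4.19 points over whole lists, 9.30 to 14.3 points over the other changes of rule or comparison and 9.87 to 13.2 points without single libraries. Those over whole lists, with equal list lengths, against gene ends (12.4) or regions outside genes (14.3) and against the PHYC pair alone (9.91) were chosen after seeing the data. ELF3 and the other libraries overlapped with the whole region over 500 bp from ends, where PHYC replicate 1 (-3.08) lay above ELF3 in LD at ZT0 (-3.67). These runs all re-cut the same 10 lists. List membership chose the regions, so the kept sign is a description and no support. Other results varied more with the rule. With peaks of -log10 p above 2 only, there were 700 deep regions, the width difference was -10.8 bp (exact p = 0.00195), the q-value share difference -0.214 points (exact p = 0.0215) and LD minus SD listing turned to -0.571 points. More than 1000 bp from gene ends there were 761 deep regions, the log2 fold difference was -0.019 (exact p = 0.0293), the width difference -5.85 bp (0.0078125) and the q-value share difference -0.0667 points (p = 0.135). With regions in all 10 lists included, the fold and width differences were -0.053 and -16 bp and the q-value share -1.92 points (each exact p = 0.00195). Regions in all 10 lists had the smallest deep share, 9.86%, and among deep regions the highest median fold, 2.87. List number was not held equal in that run, so its differences cannot be told apart from those of list number. With the whole region over 500 bp from ends, width differed by -7.95 bp (exact p = 0.00391) and the q-value share by -0.0663 points (p = 0.0820). The q-value share was -0.0682 points in regions of 6 to 9 lists (exact p = 0.105), -0.0728 with at most 1 peak per list (p = 0.0586), -0.0489 within each number of lists (p = 0.0938) and 0.0012 against gene ends alone (p = 0.992), where log2 fold was -0.028 (p = 0.00195). Within each number of lists the log2 fold difference from all other recurrent regions was -0.0078. With lists of equal length, chosen after seeing the data, width differed by -6 bp (exact p = 0.0234). The causes were not tested. Without single libraries the fold difference ranged from -0.021 to -0.012, the q-value share from -0.0904 to -0.0486 points, width from -5.11 to -2.33 bp, LD minus SD listing from -0.968 to 3.58 points and the LD to SD log2 fold ratio from -0.0024 to 0.051. Summits within 200 bp in place of overlaps gave 1412 deep regions. Replicate numbers carry no pairing, since every condition but the PHYC pair had 1 library, so no analysis was paired by replicate. The tests within libraries and within times pair by library or time instead. The limits are 1 library per condition, unknown depth, lists at a loose threshold and a gene table from another annotation than the authors' build.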
